A study of Homo sapiens with 12 samples.

Results

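The genes described here encode actins and the proteins that bundle, bind or pull on actin filaments, together with SRF, the serum response factor. The 10 genes were chosen by name from the 58735 genes of the count table: the smooth muscle actin ACTA2, the cytoskeletal actins ACTB and ACTG1, the calponin-family genes TAGLN and CNN1, the myosin light chain MYL9, the tropomyosins TPM1 and TPM2, the actin crosslinker ACTN1 and SRF. HK-2 is an immortalized epithelial line of the human renal proximal tubule, and all 12 samples came from this 1 line. The 4 groups had 3 samples each: a control group given water, and cells exposed for 48 h to 75 mg I/mL iohexol, an iodinated contrast medium, to 5 μM cisplatin, a platinum drug used against tumors, or to 4 mM vancomycin, a glycopeptide antibiotic. RNA was selected by poly(A), and 14057282 to 18177109 reads per sample were counted on genes. Levels are given as CPM, counts scaled to the library total and by TMM, and 3 counts correspond to 0.165 to 0.213 CPM before that scaling.

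SRF is a transcription factor that binds the CArG box, a short motif in the promoters of many actin and contractile genes. Its partners of the MRTF family are held back by unpolymerized actin and reach the nucleus when actin assembles into filaments, while the ternary complex factors ELK1, ELK3 and ELK4 direct SRF to immediate early genes. Smooth muscle actin, transgelin and calponin are widely used as markers of smooth muscle cells and myofibroblasts, whereas ACTB and ACTG1 form the cytoskeleton of nearly every cell and ACTB is a common reference gene.

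In the HK-2 samples the epithelial keratins were well expressed, while markers of the proximal tubule and of smooth muscle ranged from under 1 CPM to 189.5 CPM in the controls. KRT8 and KRT18, keratins of simple epithelia, averaged 494 and 174 CPM in the control group. Of the 8 proximal tubule markers examined, SLC22A6 had no count in any sample and LRP2, SLC34A1 and AQP1 stayed under 1 CPM, whereas GGT1, a brush border enzyme, averaged 189.5 CPM in the controls and 363 CPM with vancomycin. Of the 8 smooth muscle markers, the regulator MYOCD and LMOD1 were under 1 CPM in every sample, and SMTN, smoothelin, averaged 125 CPM in the controls. In bulk samples a change in the share of cells that express a gene and a change in its RNA per cell cannot be told apart.

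The windows before the transcription starts of the members are shown first, because SRF is itself a member and CArG boxes are the sites it is known for. The RefSeq promoter table (build GRCh38.p14) had entries for 7 of the 10 members, in 13 windows, of which the 250 bases before each start were searched. ACTB, TAGLN and MYL9 had no entry. The strict CArG box, which reads the same on both strands, was found in 3 members, SRF, ACTG1 and ACTN1, in 1 window each. Of all 35116 windows of this length 1.16% held it. A CArG-like site, with 1 of the inner A or T letters replaced by G or C, was found in ACTA2 only. This was 1 of the 13 windows, near the 5.96% of all windows. The windows with a match are printed 5′ to 3′ with the matches in capitals. They stop before stretches that GENCODE 29 annotates as untranslated, apart from 8 bases of the ACTG1 match.
SRF, chr6:43171019-43171268, plus strand: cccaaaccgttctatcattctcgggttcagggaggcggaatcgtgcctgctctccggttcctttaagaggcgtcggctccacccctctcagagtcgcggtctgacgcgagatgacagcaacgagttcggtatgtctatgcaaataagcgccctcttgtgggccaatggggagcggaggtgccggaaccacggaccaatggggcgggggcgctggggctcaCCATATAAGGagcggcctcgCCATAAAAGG
ACTG1, chr17:81512884-81513049, minus strand: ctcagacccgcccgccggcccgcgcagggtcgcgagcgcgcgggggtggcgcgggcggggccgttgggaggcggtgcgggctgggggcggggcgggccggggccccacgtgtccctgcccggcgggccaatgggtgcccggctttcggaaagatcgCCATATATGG
ACTN1, window before the start listed as number 3, chr14:68977655-68977816, minus strand: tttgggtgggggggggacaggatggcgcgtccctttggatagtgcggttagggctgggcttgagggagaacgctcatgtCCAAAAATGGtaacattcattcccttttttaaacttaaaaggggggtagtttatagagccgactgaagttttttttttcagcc
ACTA2, window before the start listed as number 2, chr10:88952774-88953023, minus strand: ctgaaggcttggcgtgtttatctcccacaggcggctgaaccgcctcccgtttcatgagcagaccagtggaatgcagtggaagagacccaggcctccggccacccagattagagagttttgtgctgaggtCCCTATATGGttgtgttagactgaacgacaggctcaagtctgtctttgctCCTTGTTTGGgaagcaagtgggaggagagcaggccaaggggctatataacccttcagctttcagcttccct
SRF thus had a pair of boxes, at 30 to 21 and at 10 to 1 bases before its start. The ACTG1 box lay at 94 to 85 bases, the ACTN1 box at 171 to 162 bases, and the ACTA2 sites at 121 to 112 and 71 to 62 bases before their starts. The windows of CNN1, TPM1 and TPM2 held neither pattern. The only TPM1 window, chr15:63048239-63048488, lay inside the gene, which the count table places at chr15:63042632-63071915. The bases before the first position of TPM1 were not searched. A match describes letters in the reference sequence and does not show that SRF was bound there.

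The comparison of each drug with the control group asked which of these genes changed in cells exposed to a nephrotoxic drug. With iohexol, 5 of the 8 members tested fell, namely ACTB, ACTG1, TAGLN, TPM1 and ACTN1, and 0 rose, where 9.77% of all 15657 genes tested fell and 11.2% rose. With cisplatin ACTB, ACTG1, TAGLN, TPM1 and ACTN1 again fell and CNN1 and SRF rose, of 8 tested, where 30.6% of 15876 genes fell and 29.2% rose. With vancomycin ACTB, ACTG1 and TPM1 fell and ACTA2, CNN1, TAGLN and SRF rose, of 9 tested, where 28.8% of 15819 genes fell and 29.0% rose. ACTA2 entered this test only through its vancomycin samples, where it was high. A change was called at an adjusted p under 0.05 in edgeR's quasi-likelihood test with Benjamini-Hochberg adjustment over all genes tested. Changes that were also over 2-fold were 0 with iohexol, CNN1 and TPM1 with cisplatin, and ACTA2, CNN1 and TPM1 with vancomycin, against 5.28%, 16.3% and 18.5% of all genes. The median log2 fold change of the members tested was -0.52 with iohexol, -0.55 with cisplatin and 0.01 with vancomycin, where that of all genes was within 0.01 of 0. The 3 comparisons share their control samples.

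**Figure D1:**
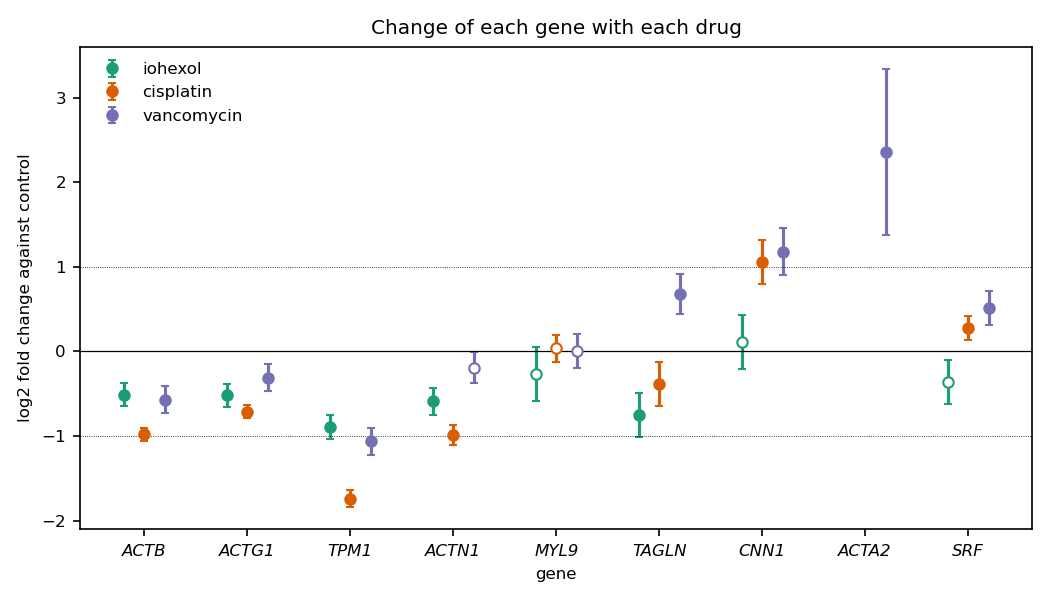
The vertical axis is the log2 fold change against control of each member tested and the bars are 2 standard errors; filled points passed an adjusted p under 0.05 and open points did not, and the dotted lines mark 2-fold. TPM1 and the cytoskeletal actins lie below 0 with every drug, and ACTA2, tested with vancomycin only, has the widest bar.

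The cytoskeletal actins were among the most abundant transcripts and fell with all 3 drugs. ACTB (ENSG00000075624, chr7:5527147-5563784, GRCh38) was at 6104, 6329 and 6075 CPM in the control samples, 4316, 4205 and 4314 CPM with iohexol, 3104, 3164 and 3151 CPM with cisplatin, and 4241, 4341 and 4285 CPM with vancomycin. No drug sample overlapped the controls, and the cisplatin samples were the lowest. ACTB fell by 0.51 on the log2 scale with iohexol (SE 0.07, edgeR adjusted p = 0.000193), by 0.98 with cisplatin (SE 0.04, adjusted p = 3.32e-12) and by 0.57 with vancomycin (SE 0.08, adjusted p = 8.58e-07). ACTG1 (ENSG00000184009, chr17:81509971-81523847), the other cytoskeletal actin, was at 5411, 5387 and 5231 CPM in the controls, 3722, 3614 and 3697 CPM with iohexol, 3234, 3280 and 3306 CPM with cisplatin, and 4407, 4455 and 4433 CPM with vancomycin. Its groups did not overlap either, and the vancomycin samples stayed nearest to the controls. ACTG1 fell by 0.52 with iohexol (SE 0.07, edgeR adjusted p = 0.000184), by 0.71 with cisplatin (SE 0.04, adjusted p = 2.20e-10) and by 0.31 with vancomycin (SE 0.08, adjusted p = 0.00115).

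The actins did not fall in equal measure. The ratio of ACTB to ACTG1 counts, which no scaling between samples can change, was 1.15 ± 0.024 (SD, n = 3) in the control group and 1.16 ± 0.00356 with iohexol, and 0.959 ± 0.00577 with cisplatin and 0.968 ± 0.00613 with vancomycin. The cisplatin and vancomycin samples lay outside the control range and the iohexol samples overlapped it. The exact two-sided permutation p was 0.1 for cisplatin and for vancomycin, the smallest that 3 against 3 samples can give, and 0.8 for iohexol. Together the pair took 1.11% ± 0.011 of all counts in the control group, 0.819% ± 0.00817 with iohexol, 0.721% ± 0.00614 with cisplatin and 0.778% ± 0.0014 with vancomycin (n = 3 each). Values divided by ACTB depend on both transcripts. SRF counts per 100 ACTB counts were 1.13 ± 0.0962 in the controls, 1.26 ± 0.215 with iohexol, 2.71 ± 0.0377 with cisplatin and 2.39 ± 0.143 with vancomycin.

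**Figure D2:**
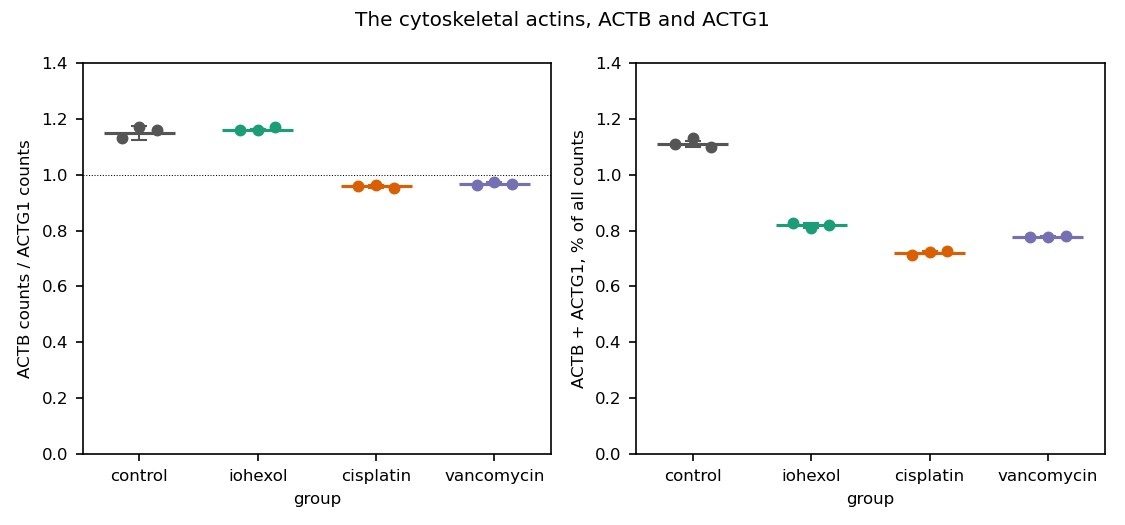
Points are samples and bars the mean and SD of 3; the left axis is the ratio of ACTB to ACTG1 counts and the right axis the percent of all counts on both genes. The ratio is above 1 in the control and iohexol samples and below 1 with cisplatin and vancomycin, while the share is lower than in the controls with every drug.

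Reads of these actins could in part have come from relatives. Of the sequences of 31 bases in the ACTB transcripts, 22.8% also occurred in other genes, chiefly the pseudogene ACTBP2 and POTE genes. Of those of ACTG1 18.4% did, chiefly in KANTR, ACTB and the pseudogene ACTG1P9. The part of sequence shared by ACTB and ACTG1 in their ratio was not tested. The 10 ACTB pseudogenes in the table held 13 to 71 counts per sample in sum, at most 0.105% of the ACTB counts, and the 20 ACTG1 pseudogenes 26 to 72. After a correction for GC content, chosen after seeing the data, ACTG1 fell by 0.59 with vancomycin rather than 0.31.

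The tropomyosin TPM1 showed the largest falls among the members with each drug. Tropomyosins lie along the actin filament and govern the access of myosin and other proteins to it. TPM1 (ENSG00000140416, chr15:63042632-63071915) was at 1006, 989 and 996 CPM in the controls, 537, 522 and 532 CPM with iohexol, 294, 300.4 and 304 CPM with cisplatin, and 484, 502 and 497 CPM with vancomycin. The groups were tight and every drug sample was far below the controls. TPM1 fell by 0.89 with iohexol (SE 0.07, edgeR adjusted p = 5.53e-06), by 1.74 with cisplatin (SE 0.05, adjusted p = 7.00e-14), which is 3.33-fold, and by 1.06 with vancomycin (SE 0.08, adjusted p = 8.29e-11), which is 2.08-fold. It fell further than ACTB: TPM1 counts per 100 ACTB counts were 16.2 ± 0.469 in the controls, 12.4 ± 0.0573 with iohexol, 9.53 ± 0.0964 with cisplatin and 11.5 ± 0.0878 with vancomycin (exact permutation p = 0.1 for each drug, n = 3). Of the TPM1 sequences of 31 bases, 20.6% occurred in other genes, among them the antisense gene TPM1-AS, which had 30 to 97 counts against 4849 to 15767 of TPM1.

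TPM2 (ENSG00000198467, chr9:35681992-35690121), the tropomyosin typical of muscle and fibroblasts, was hardly detected. It had 0, 0 and 4 counts in the controls, 0, 1 and 0 with iohexol, 2, 2 and 0 with cisplatin, and 7, 3 and 2 with vancomycin. These counts were too low for the filter in any comparison, so no change was tested and a difference was not detectable at this depth. The sums were 4 counts in the control group and 12 with vancomycin (exact permutation p of the CPM 0.3).

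ACTN1 (ENSG00000072110, chr14:68874143-68979440), alpha-actinin 1, crosslinks actin filaments at stress fibers and focal adhesions. It was at 605, 669.7 and 664 CPM in the controls, 435, 417 and 418 CPM with iohexol, 333, 318 and 327 CPM with cisplatin, and 583, 541 and 629 CPM with vancomycin. The iohexol and cisplatin samples were all below the controls, while the vancomycin samples overlapped them. ACTN1 fell by 0.59 with iohexol (SE 0.08, edgeR adjusted p = 0.000247) and by 0.99 with cisplatin (SE 0.06, adjusted p = 9.36e-11). With vancomycin its log2 fold change was -0.19 (interval of 2 SE from -0.36 to -0.01, edgeR adjusted p = 0.0675), and it passed the threshold in the fits with library-size scaling (-0.26), with GC correction (-0.23), with the replicate number as a block (-0.19) and without control replicate 1 (-0.23).

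MYL9 (ENSG00000101335, chr20:36541484-36551447), a regulatory light chain of smooth muscle and nonmuscle myosin, was not called against control with any drug. It was at 228, 310.0 and 297 CPM in the controls, 269.5, 245 and 166 CPM with iohexol, 273, 293 and 294 CPM with cisplatin, and 273, 300.4 and 289.6 CPM with vancomycin. All groups overlapped the controls, and the lowest samples were iohexol replicate 3 and control replicate 1. The log2 fold change was -0.27 with iohexol (interval -0.60 to 0.05, edgeR adjusted p = 0.266), 0.04 with cisplatin (-0.13 to 0.21, adjusted p = 0.682) and 0.01 with vancomycin (-0.19 to 0.20, adjusted p = 0.956). The last 2 turned to -0.07 and -0.29 after GC correction, where the fall with vancomycin was called (edgeR adjusted p = 0.00178), as was that with iohexol (-0.32, adjusted p = 0.00989).

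**Figure D3:**
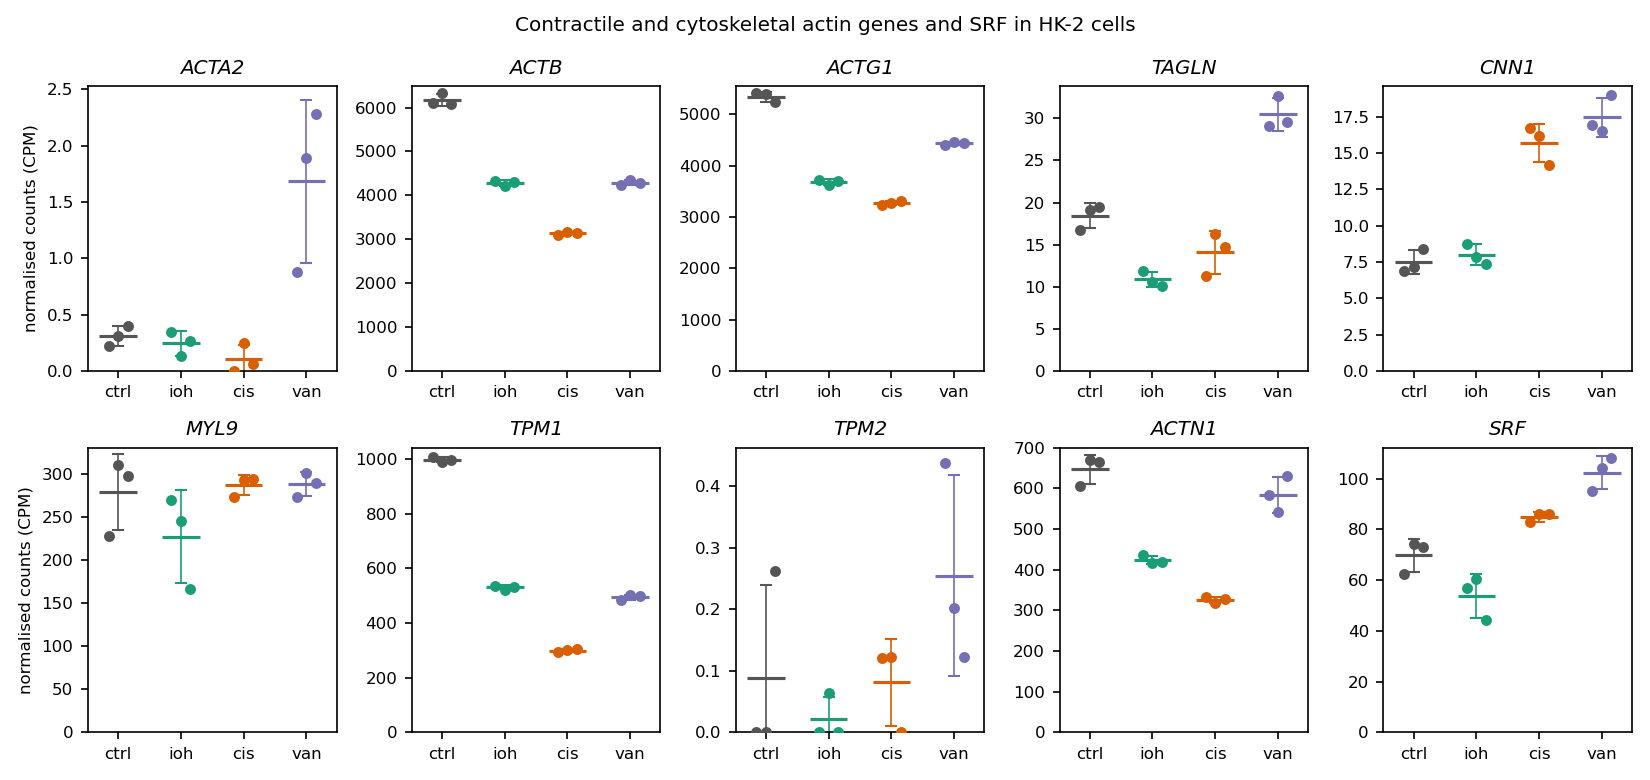
Each panel gives the CPM of 1 gene in the 12 samples (points), with the mean (line) and SD (bar) of each group of 3; ctrl is control, ioh iohexol, cis cisplatin and van vancomycin, and the axes differ between panels. ACTB, ACTG1 and TPM1 lie below the controls in all drug groups, TAGLN and SRF are highest with vancomycin, and ACTA2 and TPM2 stay under 2.5 and 0.5 CPM.

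The markers of contractile cells moved in different directions. TAGLN (ENSG00000149591, chr11:117199321-117204782), transgelin, an actin-binding protein of smooth muscle and fibroblasts, was at 16.7, 19.1 and 19.5 CPM in the controls, 11.9, 10.6 and 10.1 CPM with iohexol, 11.3, 16.3 and 14.7 CPM with cisplatin, and 29.1, 32.7 and 29.6 CPM with vancomycin. The vancomycin samples were all above the controls and the iohexol and cisplatin samples all below them. TAGLN fell by 0.75 with iohexol (SE 0.13, edgeR adjusted p = 0.00207) and rose by 0.68 with vancomycin (SE 0.12, adjusted p = 2.28e-05), the latter by 0.42 after GC correction. With cisplatin it fell by 0.39 (SE 0.13, edgeR adjusted p = 0.0164), but not past the threshold without cisplatin replicate 1 (-0.25, adjusted p = 0.110) or with scaling by library size alone (-0.17, adjusted p = 0.266). TAGLN overlaps PCSK7 on the opposite strand, and 16.9% of its sequences of 31 bases occur there. The library kit named in the labels does not mark strand, and PCSK7 had 342 to 449 counts in the controls, where TAGLN had 230 to 304. In the iohexol samples PCSK7 had 343 to 404 counts and TAGLN 151 to 172, in the cisplatin samples 575 to 593 and 186 to 265, and in the vancomycin samples 375 to 545 and 465 to 484. The part of PCSK7 in the TAGLN counts was not tested.

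CNN1 (ENSG00000130176, chr19:11538717-11550323), calponin 1, which binds actin and restrains myosin in smooth muscle, rose with cisplatin and vancomycin. It was at 6.89, 7.15 and 8.42 CPM in the controls, 8.77, 7.86 and 7.35 CPM with iohexol, 16.7, 16.2 and 14.2 CPM with cisplatin, and 16.9, 16.5 and 19.0 CPM with vancomycin. The iohexol samples overlapped the controls, and all cisplatin and vancomycin samples were higher. The log2 fold change was 1.06 with cisplatin (SE 0.13, edgeR adjusted p = 1.87e-06), 1.18 with vancomycin (SE 0.14, adjusted p = 2.32e-07) and 0.11 with iohexol (interval -0.21 to 0.43, adjusted p = 0.665). CNN1 shared 2.01% of its sequences of 31 bases with other genes.

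ACTA2 (ENSG00000107796, chr10:88935074-88991339), smooth muscle actin, was above the lowest counts with vancomycin only. It had 3, 5 and 6 counts in the controls, 5, 2 and 4 with iohexol, 0, 4 and 1 with cisplatin, and 14, 28 and 37 with vancomycin. All vancomycin samples were higher than any other sample. The log2 fold change with vancomycin was 2.36 (SE 0.49, edgeR adjusted p = 0.000242) at a mean of 1.68 ± 0.725 CPM against 0.309 ± 0.0886 CPM (SD, n = 3), in samples where ACTB and ACTG1 averaged 4289 and 4431 CPM. With iohexol and cisplatin it was not tested for lack of counts (exact permutation p of the CPM 0.6 and 0.2). ACTG2, the enteric smooth muscle actin, had 13, 15 and 18 counts with vancomycin and 5, 4 and 5 in the controls (log2 fold change 1.58, SE 0.5, edgeR adjusted p = 0.00903). Both ACTA2 and ACTG2 passed the count filter only through the vancomycin samples, where they were high. Their p-values are therefore not independent of that selection. Of the ACTA2 sequences of 31 bases 27.4% occur in other genes, and FAS and STAMBPL1 overlap it on the opposite strand. FAS had 372 to 404 counts in the controls, 363 to 508 in the iohexol samples, 700 to 770 in those with cisplatin, and 264 to 296 in the vancomycin samples. STAMBPL1 had 38 to 78 counts in the controls and 96 to 164 with vancomycin, and also 103 to 139 with cisplatin. The part of FAS and STAMBPL1 in the ACTA2 counts was not tested.

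Markers of other cell types also differed between the groups. The 8 fibroblast markers summed to 116 to 129.8 CPM in the controls and to 242 to 278 CPM with vancomycin, where ACTA2 and TAGLN were also above all other groups, against 108 to 118 CPM with iohexol and 106 to 110.2 CPM with cisplatin. Most of that sum was LUM, lumican of the extracellular matrix, at a mean of 79.8 CPM in the controls and 182 CPM with vancomycin. PDGFRA, COL1A2 and FAP of the list were under 1 CPM in every sample. With vancomycin 4 of the 5 fibroblast markers tested rose and 0 fell, where 29.0% and 28.8% of all genes did. LUM rose by 1.14 and DCN by 1.27 (from 12.3 to 30.5 CPM) on the log2 scale. COL1A1 rose by 0.41 (from 30.6 to 41.8 CPM) and PDGFRB by 1.12 (from 0.607 to 1.36 CPM). PDGFRB entered the vancomycin and cisplatin tests through the drug samples, where it was higher. With cisplatin 3 of 5 tested rose and 2 fell, where 29.2% and 30.6% of all genes did. COL1A1, PDGFRB and THY1 averaged 48.7, 1.35 and 1.29 CPM with cisplatin, and LUM and DCN fell to 54.6 and 2.70 CPM. Of the 6 smooth muscle markers tested with vancomycin 2 rose and 1 fell, against the same 29.0% and 28.8% of all genes. The 2 risers were near that share. The sum of the 8 smooth muscle markers was 129 to 145 CPM in the controls and 114 to 135 CPM with vancomycin. Most of it was SMTN, which fell from a mean of 125 CPM to 102 CPM. The 2 that rose, DES (from 0.529 to 6.37 CPM) and ACTG2 (from 0.314 to 0.978 CPM), added little to the sum. Both entered the test through the vancomycin samples, where they were high. With iohexol and with cisplatin 4 of these markers were tested. The part of a changed mix of cells in the values of ACTA2, TAGLN and CNN1 was not tested.

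SRF (ENSG00000112658, chr6:43171299-43181507) rose with cisplatin and vancomycin. It was at 62.3, 74.2 and 72.9 CPM in the controls, 56.9, 60.5 and 44.1 CPM with iohexol, 82.7, 86.2 and 86.1 CPM with cisplatin, and 95.1, 104 and 108 CPM with vancomycin. The order of the groups was iohexol, control, cisplatin and vancomycin, with no overlap between neighbours. SRF rose by 0.28 with cisplatin (SE 0.07, edgeR adjusted p = 0.00330) and by 0.51 with vancomycin (SE 0.10, adjusted p = 6.81e-05). The log2 fold change with iohexol was -0.36 (interval -0.61 to -0.10, edgeR adjusted p = 0.0682), which passed the threshold in 6 alternatives, among them DESeq2 (-0.37, adjusted p = 0.0395) and 1 fit of all groups (-0.37, adjusted p = 0.0122).

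Both SRF and MYL9 have GC-rich transcripts, and the counts of GC-rich genes deviated together in some libraries. The longest SRF and MYL9 transcripts are 60.9% and 60.5% GC, against 45.9% in TPM1. CNN1, at 59.0% GC, also belongs to the GC-richest 20% of genes, and its GC-corrected changes against control are not given here. The GC-richest 20% of genes lay at a median of -0.17 on the log2 scale from their group mean in control replicate 1 and -0.23 in iohexol replicate 3, and MYL9 deviated by -0.28 and -0.42 and SRF by -0.16 and -0.27 in these libraries. In both genes these were the lowest samples of their groups. With vancomycin the median log2 fold change was 0.30 in the GC-richest and -0.28 in the GC-poorest 20% of genes, and after GC correction the rise of SRF was 0.21 (edgeR adjusted p = 0.00954). With cisplatin the corrected rise was 0.16 (edgeR adjusted p = 0.00837), and with iohexol the corrected fall of 0.39 passed the threshold (adjusted p = 0.000319). Whether the trends with GC content are technical was not tested.

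**Figure D4:**
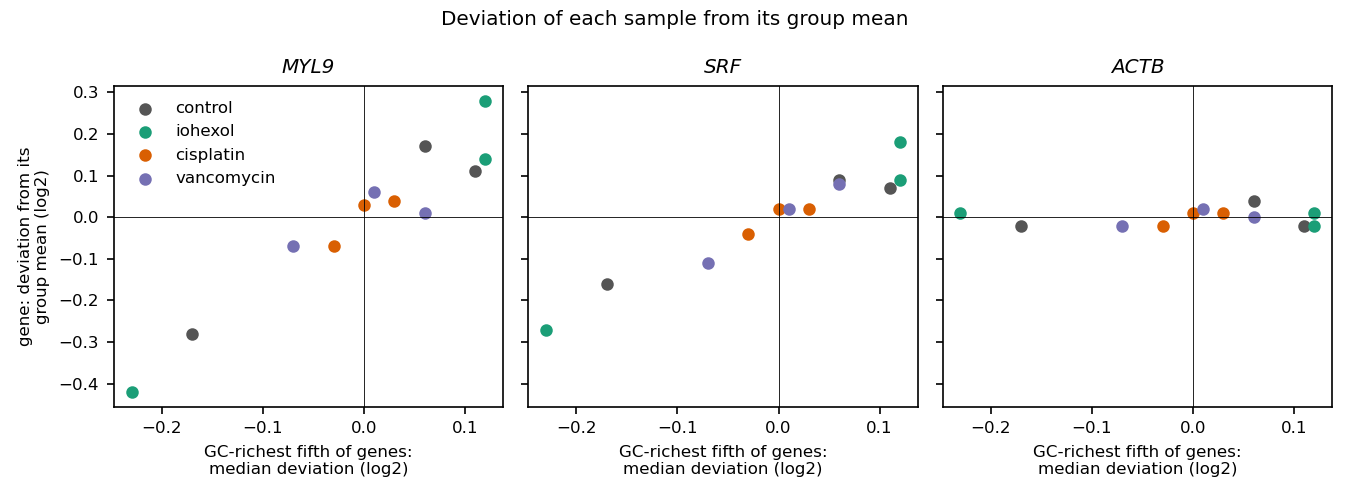
Each point is 1 of the 12 samples; the horizontal axis is the median deviation from the group mean (log2 CPM) of the GC-richest 20% of genes and the vertical axis that of the named gene. MYL9 and SRF are lowest in iohexol replicate 3 and next in control replicate 1, whereas ACTB stays within -0.02 to 0.04.

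Levels of different genes were set side by side per kilobase, and their order depended on the length used. With the gene lengths of the table, the control levels were 1785 ± 32.7 CPM per kb for ACTG1 and 1753 ± 39.5 for ACTB, then 98.6 ± 15.7 for MYL9, 77.4 ± 0.651 for TPM1 and 60.8 ± 3.35 for ACTN1 (SD, n = 3). With the length of the longest GENCODE transcript, ACTB (2748 ± 62.0 CPM per kb) stood above ACTG1 (2368 ± 43.3), and TPM1 (252 ± 2.12) and ACTN1 (138 ± 7.62) above MYL9 (98.6 ± 15.7 on both scales). The table gives 12876 bases for TPM1 and 10626 for ACTN1, and their longest transcripts have 3957 and 4674. The lower ranks of the control group were alike with both lengths: SRF at 16.6 ± 1.55 CPM per kb with either, TAGLN at 4.71 ± 0.390 and 5.59 ± 0.463, CNN1 at 2.59 ± 0.283 and 4.05 ± 0.442, and ACTA2 and TPM2, which did not differ beyond their spread, at 0.104 ± 0.0298 and 0.0270 ± 0.0468 with the table lengths. With cisplatin CNN1 was above TAGLN on both scales, at 5.44 ± 0.461 against 3.60 ± 0.658 CPM per kb of table length and 8.49 ± 0.720 against 4.27 ± 0.781 per kb of the longest transcript.

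The drugs were also compared with each other, in a fit of all 12 samples. Against iohexol, vancomycin samples were higher in 7 of 9 members tested and lower in 0, where 29.0% of all 17073 genes tested were higher and 27.6% lower. Against cisplatin they were likewise higher in 7 and lower in 0, where 34.7% of genes were higher and 30.0% lower. Cisplatin samples were higher than iohexol samples in 4 members (TAGLN, CNN1, MYL9 and SRF) and lower in 4 (ACTB, ACTG1, TPM1 and ACTN1). Of all genes 26.0% were higher and 27.9% lower. Without cisplatin replicate 2 the calls were 2 higher and 3 lower, and the share of all genes called in that fit is not given here. The largest differences were those of ACTA2, higher with vancomycin than with iohexol by 2.74 (SE 0.58, edgeR adjusted p = 0.000440) and than with cisplatin by 3.96 (SE 0.66, adjusted p = 2.66e-05) on the log2 scale, on the few counts given above. ACTA2 passed the filter of this fit only through its vancomycin samples, so these p-values are not independent of that selection. It is also among the 7 members counted as higher against each of these drugs. TPM1 with vancomycin was near its level with iohexol (log2 fold change -0.10, interval -0.23 to 0.02, edgeR adjusted p = 0.173), although the samples did not overlap and scaling by library size alone called it lower (-0.31, adjusted p = 0.000228). ACTB with vancomycin and iohexol differed by 0.00 (interval -0.11 to 0.12, edgeR adjusted p = 0.970), which became a lower level with vancomycin after scaling by library size alone (-0.20) or GC correction (-0.22). SRF was higher with vancomycin than with cisplatin by 0.27 (SE 0.10, edgeR adjusted p = 0.0265), a difference that was not called with RLE scaling (0.24, adjusted p = 0.0505) or GC correction (0.06, adjusted p = 0.343) and that turned to -0.07 with scaling by library size alone. CNN1 did not pass the threshold between vancomycin and cisplatin (0.15, interval -0.09 to 0.40).

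The related isoforms of the members, a list of 15 genes, followed the members in part. With vancomycin 7 of 13 tested rose and 2 fell, where 29.0% and 28.8% of all genes did, with a median log2 fold change of 0.25. ACTG2 was among the risers and entered this test only through its vancomycin samples. With cisplatin 3 of 12 rose and 4 fell (median -0.05), near the 29.2% and 30.6% of all genes, and with iohexol 1 of 12 rose and 5 fell (median -0.15), where 11.2% and 9.77% of all genes did. ACTN2, the alpha-actinin of striated muscle, rose from 1.76 to 15.9 CPM with vancomycin (log2 fold change 3.13, SE 0.19, edgeR adjusted p = 1.49e-12). MYL6, the essential light chain of nonmuscle myosin, rose from 357 to 983 CPM (1.42, SE 0.09, adjusted p = 6.22e-12 in edgeR). TAGLN3, a neuronal transgelin, rose with all 3 drugs, by 1.07, 1.14 and 0.41 with iohexol, cisplatin and vancomycin. TPM4, a cytoskeletal tropomyosin, fell with iohexol (-0.47) and cisplatin (-0.86) and rose with vancomycin (0.25), while ACTN4, a nonmuscle actinin, fell with cisplatin (-0.87) and vancomycin (-0.37).

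Of the SRF cofactors, 8 genes of which 7 were tested, 5 fell and 1 rose with cisplatin, 4 fell and 2 rose with vancomycin, and 1 fell with iohexol, with medians of -0.53, -0.53 and -0.12. Of all genes 30.6% fell and 29.2% rose with cisplatin, 28.8% fell and 29.0% rose with vancomycin, and 9.77% fell with iohexol. MRTFB, an actin-regulated coactivator, fell by 0.88 with cisplatin (SE 0.09, edgeR adjusted p = 2.00e-07) and by 0.61 with vancomycin (SE 0.12, adjusted p = 0.000147). SCAI, a repressor of the MRTF proteins, fell by 0.90 and 0.59. The ternary complex factor ELK1 rose by 0.28 with cisplatin and 0.80 with vancomycin. ELK3 was at -0.27, -0.06 and 0.12 with iohexol, cisplatin and vancomycin and was not called.

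Of the 27 actin-binding and adhesion genes known as SRF targets, 13 fell and 1 rose with iohexol, 14 fell and 8 rose with cisplatin, and 15 fell and 9 rose with vancomycin, with medians of -0.29, -0.15 and -0.29. The shares of all genes that fell and rose were 9.77% and 11.2%, 30.6% and 29.2%, and 28.8% and 29.0%, so the 8 risers with cisplatin and the 9 with vancomycin were near the share of all genes. MICAL2, an oxidase that promotes MRTF activity, fell by 0.92, 1.27 and 1.04 with iohexol, cisplatin and vancomycin. MYH9, the heavy chain of nonmuscle myosin IIA, fell from 3141 CPM to 2186, 1235 and 2230 CPM. CCN2, a matricellular protein also controlled by YAP, fell with iohexol (-0.81) and vancomycin (-2.42, from 349 to 67.3 CPM) and rose with cisplatin (0.46). CCN1, its relative, fell by 2.19 with vancomycin, and ANKRD1, a nuclear ankyrin-repeat protein, fell by 2.20 with vancomycin and rose by 0.87 with cisplatin. LIMA1, which stabilizes actin bundles, rose by 1.29 with cisplatin and fell by 0.39 with vancomycin.

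The immediate early SRF targets, 10 genes, had the highest medians of the 4 lists described with cisplatin and vancomycin and the lowest with iohexol. The members, which are not among these lists, had a median of -0.52 with iohexol. With cisplatin 7 of 10 rose and 1 fell (median 0.91), with vancomycin 7 rose and 1 fell (median 1.25), and with iohexol 1 of 9 rose and 4 fell (median -0.49), where 29.2%, 29.0% and 11.2% of all genes rose and 30.6%, 28.8% and 9.77% fell. EGR3, not tested with iohexol, entered the cisplatin and vancomycin tests through the drug samples and rose in both. FOS, a subunit of the AP-1 factor, rose from 1.92 CPM with cisplatin (log2 fold change 2.96, SE 0.16, edgeR adjusted p = 6.15e-11) and reached 37.2 CPM with vancomycin (4.23, SE 0.17, adjusted p = 1.19e-15). FOSB rose by 0.72 with iohexol, 3.24 with cisplatin and 3.46 with vancomycin. EGR1, a zinc finger factor, fell by 1.90 with iohexol and rose by 1.16 with cisplatin and 1.48 with vancomycin. JUNB fell from 140.4 to 60.2 CPM with iohexol and rose by 1.02 with vancomycin. EGR2 fell by 0.65 with cisplatin and IER3 by 0.26 with vancomycin. Over all 84 genes of the 5 lists examined, 1 of which is not described here, 28 of 79 tested fell and 4 rose with iohexol, 35 of 80 fell and 22 rose with cisplatin, and 28 of 81 fell and 33 rose with vancomycin, against the same shares of all genes; the 22 risers with cisplatin were near that share. The 28 and 4 genes with iohexol were 18 and 2 without control replicate 3, a fit for which the share of all genes called is not given here.

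**Figure D5:**
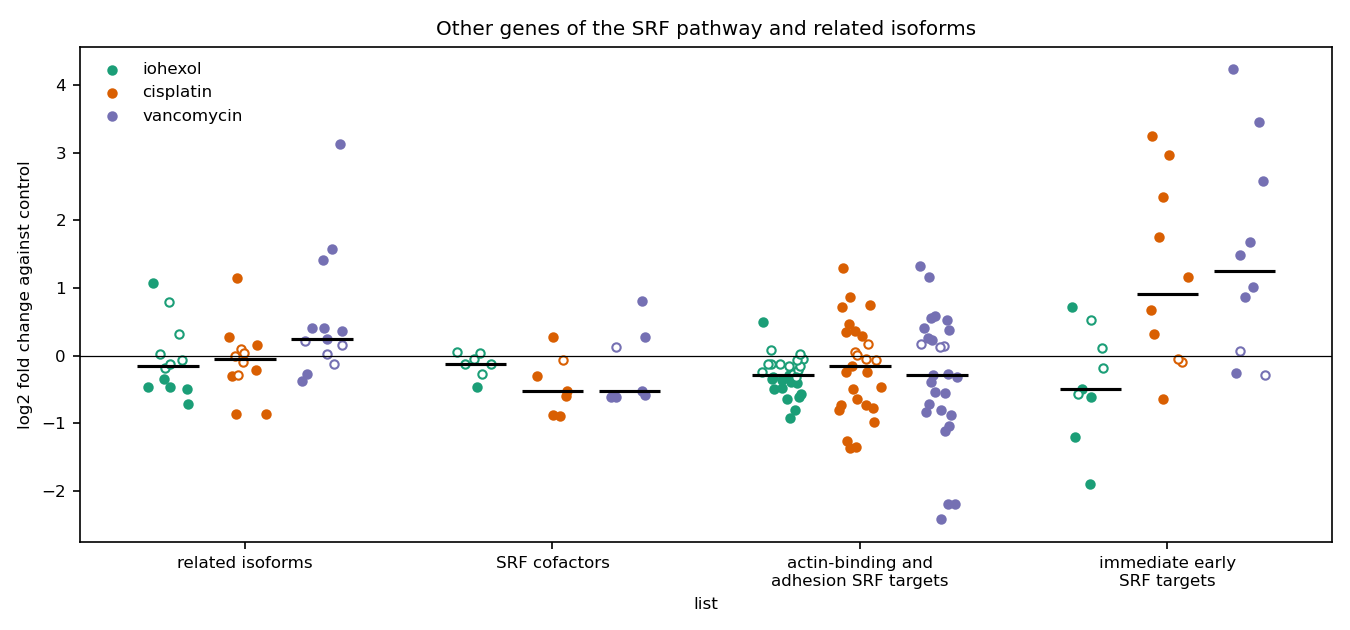
Points are genes of the 4 lists described, placed by their log2 fold change against control with each drug; filled points passed an adjusted p under 0.05, open points did not, and black lines are the medians of the genes tested. The immediate early genes reach 4.23 with vancomycin, while most adhesion genes lie below 0 with iohexol.

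Among 13555 protein-coding genes, those nearest to a member in profile were named by the root mean square difference of log2 CPM, each set against its control mean, over the 12 samples. For SRF these were EIF3G (0.0701), MAP7D1 (0.0752) and NUMBL (0.0755). For TPM1 they were GALNT7 (0.102), PDE10A (0.190) and MAML2 (0.205), and for TAGLN SLC25A37 (0.149), FSTL3 (0.172) and RPL10A (0.181). For ACTA2, whose counts were few, they were PILRA (0.379), CDH3 (0.440) and C1orf21 (0.475). GALNT7, the nearest to TPM1, changed by -0.81, -1.79 and -1.01 with iohexol, cisplatin and vancomycin on this scale, where TPM1 changed by -0.91, -1.73 and -1.01.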

How the data were processed

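RNA of HK-2 cells was measured in 12 samples, 3 in each of 4 groups taken from the labels. The authors deposited whole-number counts of reads per gene for 58735 genes, without normalization. The submitters' processing notes name CASAVA 1.8, fastp, HISAT2 2.0.5, featureCounts 1.5.0-p3 and DESeq2 1.20.0. The strand setting of the counting is not given in the sources used here, and the kit named in the labels does not mark strand. The positions are on GRCh38, and 58653 genes lie where GENCODE 29 has them. The labels do not say that samples of a group were separate cultures, so p-values measure the spread between these samples, which may be technical. Replicates of a group differed by 2.34 to 17.5 times the sampling noise (chi-square per degree of freedom).

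Each drug was compared with control in a separate fit with edgeR 4.0.16 in R 4.3.3 (TMM, filterByExpr at 10 counts and 15 in total, glmQLFit, glmQLFTest), and drugs with each other in a fit of all 12 samples. Adjusted p-values are Benjamini-Hochberg over all genes tested. CPM used the TMM factors of all 12 samples, 0.885 to 1.13. Single values were compared by exact two-sided permutation tests. The interval of a log2 fold change is 2 SE to each side. GC content and sequences shared between genes, read as 31 bases at steps of 5, came from GENCODE 29 transcripts. Floors of counts cover counting error only, while the intervals include the spread between samples. On simulated counts for the cisplatin comparison 15241 genes were tested. Of 100 genes changed 2-fold there 90 were called in the right direction, and of 100 changed 4-fold 100 were. These values hold for the simulated counts only. How often such genes are called in the real samples, at their spread and at low counts, was not tested.

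Alternatives were RLE or library-size scaling, other filters, DESeq2 1.42.0, limma-voom (limma 3.58.1), the replicate number as a block, 1 fit of all groups, leaving out each sample and, chosen after seeing the data, corrections for GC content or transcript length (a lowess trend per sample). The members, the 5 lists and the markers were chosen with earlier results of these data known. Of the 5 lists, 1 is not reported here by its genes. All members are named. Of each other list, genes over 2-fold with a drug and those with the 2 highest and 2 lowest mean changes could be named, and for 4 members the 3 genes of nearest profile. KRT8, KRT18, the fibroblast genes and the other cell type markers named for their levels or changes are outside that rule. They were chosen after their values were seen. Figures were drawn with matplotlib 3.10.9.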

Additional observations from a re-analysis of the deposited data

Results flagged for a closer look

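TAGLN moved in opposite directions with different drugs. It rose with vancomycin by 0.68 on the log2 scale and fell with iohexol by 0.75 and with cisplatin by 0.39, each past the threshold against the shared controls. The difference between the drug groups themselves was 1.49 for vancomycin over iohexol (SE 0.13, edgeR adjusted p = 9.64e-09) and 1.11 for vancomycin over cisplatin (SE 0.13, edgeR adjusted p = 2.49e-07), with all 3 vancomycin samples above every iohexol and cisplatin sample. Both differences kept their direction and their call in every alternative run, with 1.22 and 0.93 after GC correction.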

How the results depend on the processing

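Of the values of single members under the alternatives, 715 kept their direction and their side of the threshold, 14 gained and 29 lost a call and 29 changed sign. Values that changed sign were mostly near 0. MYL9 turned with cisplatin to -0.07 (GC correction) and -0.04 (length correction), and with vancomycin to -0.07 (library size only), -0.01 (all genes with at least 1 count), -0.29 (GC) and -0.06 (length). Between vancomycin and cisplatin MYL9 turned to -0.03 (RLE), -0.33 (library size), -0.02 (at least 10 counts in every sample), -0.03 (DESeq2), -0.20 (GC) and -0.01 (length), CNN1 to -0.18 (library size) and -0.05 (GC), and SRF to -0.07 (library size). Between vancomycin and iohexol ACTB turned to -0.01 (RLE), -0.20 (library size), -0.02 (at least 10 counts), -0.01 (DESeq2), -0.22 (GC) and -0.11 (length), and ACTG1 to -0.01 (GC). Leaving out 1 sample gave -0.09 to 0.12 for MYL9 with cisplatin, -0.12 to 0.09 with vancomycin and -0.03 to 0.05 between these drugs, and -0.01 to 0.01 for ACTB between vancomycin and iohexol. The list genes called with iohexol, 32, were 20 to 39 without 1 sample, lowest without control replicate 3. The members called between cisplatin and iohexol, 8, were 5 to 8, lowest without cisplatin replicate 2. How far the calls over all genes changed in these fits is not given here. The causes were not tested. Library-size scaling moved the median of all genes by 0.22 with cisplatin, 0.07 with iohexol and -0.08 with vancomycin.

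Samples that share a replicate number did not deviate together (mean correlation -0.0209 over 18 pairs, from -0.184 to 0.103), so the number was not taken as a pairing. In the fit with that number as a replicate block, the members called against control were 5 with iohexol, 7 with cisplatin and 8 with vancomycin, where ACTN1 was added (edgeR adjusted p = 0.0293), and the list genes 26, 60 and 62. Between drugs the block left 8, 7 and 7 members called. The shares of all genes called with the block are not given here. ACTA2 and TPM2 are limited by depth.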

Other observations

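Other genes typical of muscle or mesenchymal cells were examined beside the members; these genes were named after their values were seen. Desmin (DES), the intermediate filament protein of muscle, had 5, 8 and 11 counts in the control samples and 76, 85 and 140 with vancomycin (log2 fold change 3.52, SE 0.33, edgeR adjusted p = 3.21e-09), while iohexol and cisplatin samples had 3 to 10. It passed the count filter through the vancomycin samples, so its p-value is not independent of that selection. Smoothelin (SMTN), a contractile smooth muscle protein, fell with iohexol (-0.90) and vancomycin (-0.34) and rose with cisplatin (0.25). SMTNL2, a smoothelin-like protein, rose from 8.49 to 49.0 CPM with iohexol (2.55, SE 0.14, edgeR adjusted p = 2.16e-07) and fell with cisplatin (-2.43, SE 0.22, edgeR adjusted p = 5.54e-08), and was at 0.05 with vancomycin. SYNPO2, a smooth muscle actin-binding protein, was at 0.13, 0.09 and -0.14 with iohexol, cisplatin and vancomycin and was not called. MYH11, the smooth muscle myosin heavy chain, stayed near 1 CPM with log2 fold changes of 0.10, -0.37 and -0.14 with iohexol, cisplatin and vancomycin, none of them called.

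The 6 epithelial markers summed to 872 to 978 CPM in the controls, and the iohexol, cisplatin and vancomycin samples had 707 to 863, 1370 to 1425 and 1290 to 1417 CPM. Most of each sum was KRT8, at means of 494, 412, 844 and 821 CPM in the same order. With cisplatin 4 of 5 tested rose and 1 fell, where 29.2% and 30.6% of all genes did. With vancomycin 3 rose and 2 fell, where 29.0% and 28.8% did. With iohexol 0 rose and 2 fell, where 11.2% and 9.77% did. EPCAM fell with cisplatin (-1.51) and vancomycin (-0.44), and KRT7 fell with vancomycin (-0.83). CDH1 was under 1 CPM throughout. The 8 proximal tubule markers summed to 161 to 214 CPM in the controls and to 121 to 180.3, 166 to 183 and 359 to 386 CPM in the same order of drugs. Most of that sum was GGT1, at means of 189.5, 147, 169 and 363 CPM in the control, iohexol, cisplatin and vancomycin groups. With iohexol 2 of 4 tested rose and 0 fell, where 11.2% and 9.77% of all genes did. These were CUBN (from 0.707 to 1.98 CPM) and ANPEP (from 1.44 to 4.81 CPM). CUBN had 9, 15 and 8 counts in the controls and entered the test through its iohexol samples, at 30, 26 and 33 counts. With cisplatin 0 of 3 rose and 1 fell, against 29.2% and 30.6% of all genes. With vancomycin 2 of 5 rose and 0 fell, against 29.0% and 28.8%. AQP1, at 5, 3 and 4 counts in the controls, entered that test through its vancomycin samples, at 15, 14 and 13 counts.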
